A study of Mus musculus with 19 samples.

Results

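The RNA of 9 genes that write, keep or remove DNA methylation was examined in mouse oocytes and 2cell embryos labelled heterozygous or knockout for Cpeb3. The 9 genes, out of 25891 rows of the expression table, were chosen by name: the methyltransferases Dnmt1, Dnmt3a, Dnmt3b and Dnmt3l, the DNMT1 partner Uhrf1, the 5-methylcytosine oxidases Tet1, Tet2 and Tet3, and Dppa3. All 9 were in the table, and 8 passed the filter on low values in each comparison. The exception was Tet2. CPEB3 is an RNA-binding protein that recognises U-rich elements in 3′UTRs and controls translation, and the study asked what its loss from the oocyte does to the RNA of the oocyte and of the embryo.

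There were 19 libraries of RNA from small pools of cells. The methods speak of quadruplicates and of another sequencer than the labels do, and the groups here hold every library that the labels name. They comprised 5 CPEB3+/− (Het) and 5 CPEB3−/− (KO) libraries of metaphase II (MII) oocytes, and 5 Het and 4 KO libraries of 2cell embryos collected 37 h post hCG. The females were on a BL6 background, 6 to 10 weeks old, and were primed with 5 IU PMSG. The protocol in the labels adds 5 IU hCG, 48 h later, for MII oocytes obtained in vivo, without stating the route for each library. According to the study's methods, the KO was conditional: a floxed Cpeb3 was deleted by ZP3-Cre, which is active in the growing oocyte, so the remaining tissues kept the gene. The methods give as controls either CPEB3 LoxP/− with ZP3-Cre or CPEB3+/+, and the labels name the control libraries Het without stating Cre. The genotype of a 2cell library is that of the mother. Nothing in the labels ties a library to a single female, so the p-values measure the spread between libraries, which may in part be technical.

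DNA methylation in the early embryo is set by opposing activities. DNMT3A and DNMT3B, helped by the catalytically inactive DNMT3L, place new methyl groups while the oocyte grows. DNMT1, brought to hemimethylated DNA by UHRF1, copies the marks after replication. TET enzymes oxidise 5-methylcytosine, with TET3 the form known for its action on the paternal genome of the zygote, and the maternal protein DPPA3 (also called STELLA) protects the maternal genome from oxidation and keeps UHRF1 out of the oocyte nucleus. Maternal RNA is degraded on a large scale between MII and the 2cell stage, when the embryo's own transcription starts.

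The depth estimated from the steps between low values was 17250000 to 23570000 fragments per library, with a median of 19750000. The RNA of Cpeb3 itself was low and did not follow the labels: it was 0.0755 ± 0.0240 FPKM (fragments per kilobase of transcript, scaled to the library's total; SD, n = 5) in the libraries labelled Het and 0.162 ± 0.0325 FPKM (SD, n = 5) in those labelled KO at MII, and 0.0303 ± 0.0149 FPKM (SD, n = 5) and 0.0554 ± 0.0129 FPKM (SD, n = 4) at the 2cell stage. The value covers the whole gene, so it does not check the deletion of a part of it, and Het and KO below are the labels. All 10 oocyte markers (Zp3, Gdf9 and the like) were above 0.1 FPKM in every group, with a summed level of 1566 to 1916 FPKM in Het and 1296 to 1490 FPKM in KO MII libraries, which did not overlap, and of 169 to 244 FPKM in 2cell libraries. Of the 10, Mos was called lower in KO at MII, while in 2cell embryos Ooep was called higher (log2 fold change 0.90) and Oosp1 lower (-0.69). The 10 markers of embryonic activation summed to 38.1 to 62.3 FPKM in MII and to 452 to 850 FPKM in 2cell libraries. Of these 10, Zscan4c, Zscan4d and Zscan4f were higher in KO than in Het MII oocytes, while in 2cell embryos Zscan4d and Eif1a were lower in KO and the median log2 fold change of the list was -0.38. Of 14 cumulus and granulosa cell markers 10 were in the table, and they summed to at most 1.30 FPKM. One of them, Tnfaip6, was called lower in KO 2cell embryos, with 0.217 to 0.427 FPKM in Het and 0.0372 to 0.133 FPKM in KO libraries. Of 6 blood markers 3 were in the table, and they summed to at most 0.428 FPKM in MII but to 46.2 to 146 FPKM in 2cell libraries of either genotype, nearly all of it from the haemoglobin genes Hba-a1 and Hba-a2. The part of these markers in the differences below was not tested.

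The reads of some members can be shared with other genes. Uhrf1 has a processed pseudogene, Gm5648, that matched its transcripts at 98.3% over 1590 bases, and Dppa3 has the pseudogene Dppa3-ps, which matched at 98.2% over 451 bases and was listed at a higher level than Dppa3 itself. Dnmt3b shares a stretch of 1434 bases at 93.9% with Dnmt3c, which was listed at a mean of at most 0.0189 FPKM in any group. How the authors' counting split such reads was not stated, so the levels of Uhrf1, Dppa3 and Dnmt3b are uncertain. Antisense genes overlap Dnmt3a (Dnmt3aos), Dnmt3b (Dnmt3bos) and Tet2 (Gm42567), the gene Aire overlaps Dnmt3l on the opposite strand, and the use of strand in counting was not stated.

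Because CPEB proteins bind U-rich elements near the end of the transcript, the longest annotated 3′UTR of each member was searched on the sense strand for the U-rich motifs TTTTAT, then TTTTAAAT, then TTTTAAGT, further TTTTACT as well as TTTTCAT, plus the A-rich polyadenylation signals AATAA and also ATTAAA. These motifs can overlap each other. Over 17070 genes of the table with a 3′UTR, 63.3% held at least 1 of the U-rich motifs and 92.1% at least 1 of the A-rich ones. Of the members, 7 held a U-rich motif: Tet3 had 13 in 5669 bases, Tet1 12 in 7962, Dnmt3a 8 in 6696, Tet2 7 in 3058, Dnmt3b 4 in 1331, Uhrf1 3 in 984 and Dnmt1 1 in 312. Dnmt3l (273 bases) and Dppa3 (267 bases) held none. These counts are for the longest 3′UTR, and as a mean over annotated transcripts they were lower for Dnmt3a (2.75), Dnmt3b (3.70) and Tet1 (6.75). Longer 3′UTRs held more: among genes with a 3′UTR of a length close to that of Tet3, 98.1% held a U-rich motif and 22.1% held at least as many as Tet3. The share that held at least as many was 18.5% for Dnmt3b, 19.2% for Uhrf1, 25.3% for Tet2, 30.5% for Dnmt1, 55.3% for Tet1 and 66.5% for Dnmt3a.
The windows below show, for the 4 members that differed between genotypes and for Dnmt1, the U-rich motif nearest to the transcript's end and, for Dppa3, which has none, its last A-rich signal. They are 5′ to 3′ on the gene's strand (GRCm38, GENCODE vM21), with the motif in capitals.
Dnmt3b, chr2:153687539-153687568, plus strand, motif 180 bases from the end: ctcagacttctaTTTTCATgttaccatttt
Uhrf1, chr17:56323208-56323237, plus strand, motif 267 bases from the end: gggtttttttatTTTTATtttttaaagcga
Tet3, chr6:83362381-83362410, minus strand, motif 26 bases from the end: tgttttaataaaTTTTATatttattttttg
Dnmt1, chr9:20907239-20907268, minus strand, motif 48 bases from the end: gacttgatgtagTTTTATatgttgtaatat
Dppa3, chr6:122630242-122630271, plus strand, signal 19 bases from the end: ccagaaatttgtAATAAaagcatttttgtt
In Tet3 an A-rich AATAA lay just before the U-rich motif, in the same window. The Uhrf1 motif lay farther from the end than those of Tet3 and Dnmt1. A motif match is a description of the letters and not a measured binding site.

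**Figure D1:**
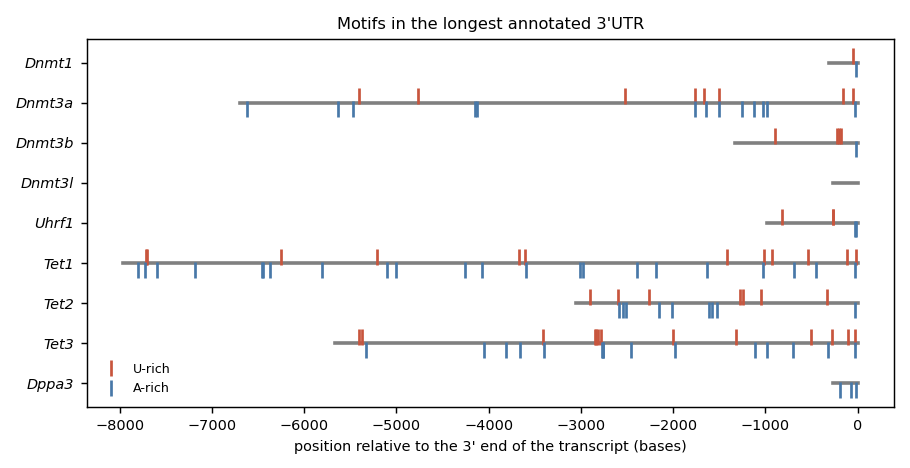
Positions of U-rich (red) and A-rich (blue) motifs along the longest annotated 3′UTR of each member (grey line), in bases from the 3′ end of the transcript. Tet3 carried 13 U-rich motifs, while Dnmt3l and Dppa3 carried none.

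The members lie on 7 chromosomes of GRCm38: Dnmt1 on chr9:20907209-20959889, Dnmt3a on chr12:3806007-3914444, Dnmt3b on chr2:153649450-153687731, Dnmt3l on chr10:78041947-78063623, Uhrf1 on chr17:56303321-56323487, Tet1 on chr10:62804570-62908997, Tet2 on chr3:133463679-133545140, Tet3 on chr6:83362373-83459085 and Dppa3 on chr6:122626410-122630273.

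FPKM is divided by a length for each gene, so the order of levels between genes depends on the length used. Dnmt3a, for example, has 18 annotated transcripts, with 3′UTRs of 95 to 6696 bases. In estimated fragments per Het MII library Tet3 (mean 1339) lay above Dnmt1 (1214), unlike the order in FPKM below. In Het MII oocytes Dppa3 was far above the other members, at 962 ± 96.4 FPKM (SD, n = 5), and ranked 10 among all genes. Dnmt1 followed at 7.86 ± 0.825 FPKM, Uhrf1 at 5.44 ± 1.60 FPKM and Tet3 at 3.86 ± 0.862 FPKM (each SD, n = 5). The ranges of Dnmt1 and Uhrf1 overlapped, as did those of Uhrf1 and Tet3. Below them came Dnmt3a (0.489 FPKM), Dnmt3l (0.341), Dnmt3b (0.134), Tet1 (0.126) and Tet2 (0.0296), of which Dnmt3a overlapped with Dnmt3l, and Dnmt3b with Tet1. The order was the same in KO MII oocytes. In Het 2cell embryos Dppa3 was still first, at 932 ± 70.1 FPKM (SD, n = 5), followed by Dnmt3l (0.811 FPKM), Uhrf1 (0.811), Tet3 (0.696), Dnmt1 (0.321), Tet1 (0.270), Dnmt3a (0.0768), Dnmt3b (0.0685) and Tet2 (0.0241), and the ranges of Dnmt3l, Uhrf1 and Tet3 overlapped from one to the next. In KO 2cell embryos Uhrf1 (2.41 FPKM) and Tet3 (1.40) stood above Dnmt3l (0.920) with no overlap between neighbours. In estimated fragments these levels correspond to 15271 to 22167 per Het MII library for Dppa3, but to 4.23 to 10.9 per Het 2cell library for Dnmt3b and 6.27 to 8.75 for Tet2, so the lowest members rest on few reads.

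**Figure D2:**
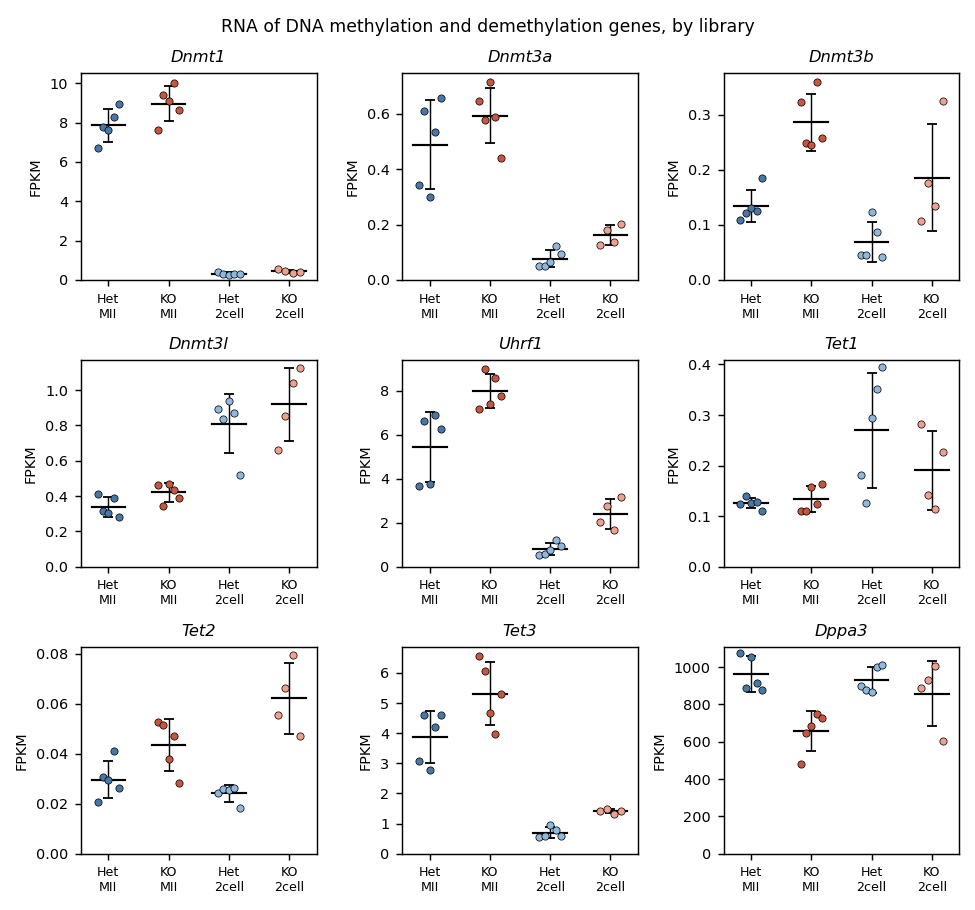
FPKM of each member in each library (points) by group, with the group mean (horizontal bar) and SD (error bar); the axes start at 0 and differ between genes. In 2cell embryos all KO points of Uhrf1, Tet3, Dnmt3a and Tet2 lay above all Het points, and in MII oocytes all KO points of Dppa3 lay below all Het points.

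The first question was whether the members differed between KO and Het at each stage. A gene was called when its adjusted p (limma on log2(FPKM + 0.1), Benjamini-Hochberg over all genes tested) was under 0.05 and its change was over 1.5-fold. On that scale the change of a low gene is understated. In MII oocytes 2 of the 8 members tested were called, Dnmt3b higher and Dppa3 lower, against 12.9% of all 10515 genes tested, and in 2cell embryos 2 of 8 were called, Uhrf1 and Tet3, both higher, against 18.1% of 14051 genes. Of all genes 5.59% were higher by this rule and 7.29% lower at MII, and 8.53% and 9.54% at the 2cell stage. The median log2 fold change of the members tested was 0.18 at MII and 0.44 at the 2cell stage, beside 0.01 and -0.0038 over all genes. At the 2cell stage Dnmt3a and Dnmt3b met the filter on low values through 4 KO libraries and 1 Het library each, and the median of the other 6 members was 0.23. The libraries of KO and Het did not overlap in 3 of the 8 members tested at MII (Dnmt3b, Dppa3 and Uhrf1) and in 3 of 8 at the 2cell stage (Uhrf1, Tet3 and Dnmt3a), against 16.3% and 20% of the genes tested. Without Dnmt3a and Dnmt3b the latter count was 2 of 6. Tet2, which did not pass the filter, did not overlap at the 2cell stage either. Across all genes the fold change went along with transcript GC content (Pearson r over genes 0.31 at MII and 0.36 at the 2cell stage). The transcripts of Dnmt1, Dnmt3b, Dnmt3l, Uhrf1 and Tet3 have a GC content of 53.1% to 54.0%, and those of Tet1, Tet2 and Dppa3 one of 43.7% to 45.4%. With the GC trend removed from each library, Uhrf1 and Tet3 were still called in 2cell embryos, and no member was called in MII oocytes (limma). There Dnmt3b and Dppa3 kept an adjusted p under 0.05 (limma, 0.0226 and 0.0155) but were under 1.5-fold (log2 fold change 0.51 and -0.58). With libraries scaled to the same sum of FPKM, which raised the median log2 fold change of all genes to 0.15 at MII and 0.26 at the 2cell stage, Dnmt3b and Uhrf1 were called at MII, and Dnmt1, Dnmt3a and Dnmt3b in addition to Uhrf1 and Tet3 at the 2cell stage, all of them higher in KO. Dnmt3a and Dnmt3b had met the filter there mainly through KO libraries. Over all genes this scaling called 1589 of 10515 at MII, 1111 of them higher, and 2996 of 14051 at the 2cell stage, 2423 of them higher. FPKM are relative to each library's total, so a change in the amount of RNA per cell cannot be told apart from a change in its make-up. Whether poly(A) tail length had a part in how much of each RNA was captured, between genotypes or between stages, was not tested.

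**Figure D3:**
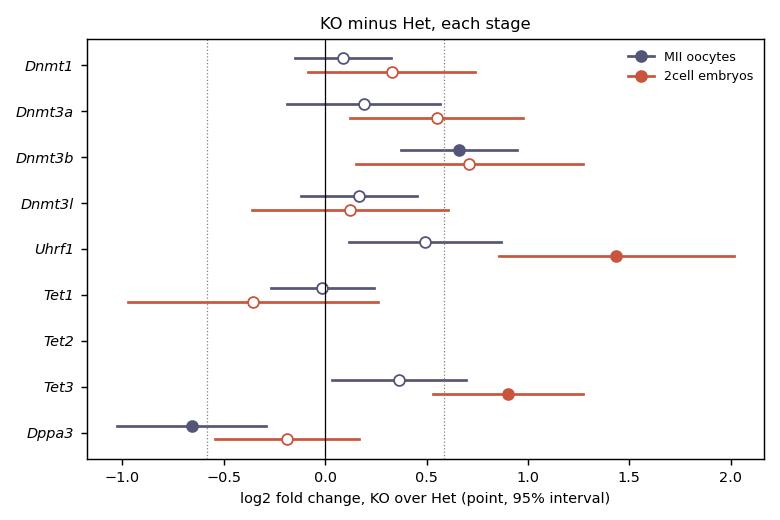
log2 fold change of KO over Het for each member at MII (dark) and at the 2cell stage (red), with 95% intervals; filled points were called, and dotted lines mark 1.5-fold. The points of Dnmt3b and Dppa3 were filled at MII, those of Uhrf1 and Tet3 at the 2cell stage, and Tet2 was not tested.

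Uhrf1, the partner that guides DNMT1 to newly replicated DNA, showed the largest difference between genotypes among the members. In Het 2cell embryos it was 0.543, 0.579, 0.762, 1.22 and 0.955 FPKM in libraries A to E, and in KO 2cell embryos 2.04, 2.78, 1.68 and 3.16 FPKM in A to D. Every KO library was above every Het library, and the ratio of the means was 2.98. The log2 fold change was 1.44 ± 0.26 (SE; limma, adjusted p = 0.00650), and it was called in 9 of 9 fits that each left out 1 library. In MII oocytes Uhrf1 was 3.67, 6.62, 3.76, 6.92 and 6.25 FPKM in Het libraries A to E and 7.19, 8.97, 7.39, 8.56 and 7.77 FPKM in KO libraries A to E. The groups again did not overlap, with Het libraries A and C the lowest, but the log2 fold change of 0.49 ± 0.17 (SE) was not called (limma, adjusted p = 0.0615). It was called when libraries were scaled to the same sum of FPKM (0.67, adjusted p = 0.0335). The pseudogene Gm5648 stood at 0.722 ± 0.330 FPKM (SD, n = 5) in Het and 2.54 ± 0.389 FPKM (SD, n = 4) in KO 2cell embryos, and at 7.19 ± 2.52 and 14.4 ± 1.29 FPKM (SD, n = 5 each) in Het and KO MII oocytes. It was called higher at either stage, with log2 fold changes of 1.75 in 2cell embryos and 0.96 in MII oocytes (limma, adjusted p = 0.00631 and 0.00803). The sum of Uhrf1 and Gm5648 was 1.53 ± 0.577 FPKM (SD, n = 5) in Het and 4.95 ± 1.02 FPKM (SD, n = 4) in KO 2cell embryos, and in MII oocytes it ran from 8.23 to 16.8 FPKM in Het and from 20.9 to 25.6 FPKM in KO libraries. The Het and KO ranges of this sum did not overlap at either stage. FPKM are divided by each gene's own length, so this sum, too, depends on how reads were split between the pair.

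Dnmt1, the maintenance methyltransferase, was not called at either stage. At MII it was 6.69, 7.76, 7.65, 8.27 and 8.93 FPKM in Het and 7.63, 9.39, 9.11, 10.0 and 8.62 FPKM in KO libraries, with overlap, and the log2 fold change was 0.09 with a 95% interval of -0.15 to 0.32. At the 2cell stage it was 0.424, 0.299, 0.255, 0.308 and 0.318 FPKM in Het and 0.532, 0.455, 0.353 and 0.426 FPKM in KO libraries, and the interval of the log2 fold change ran from -0.08 to 0.74. The level of Uhrf1 relative to Dnmt1 was 0.686 ± 0.164 in Het and 0.893 ± 0.0601 in KO MII oocytes, and 2.63 ± 1.04 in Het and 5.52 ± 1.56 in KO 2cell embryos (ratio of FPKM, SD, n = 5 and, for KO 2cell, 4).

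Of the de novo enzymes, Dnmt3b was called in MII oocytes. Its Het libraries A to E held 0.108, 0.122, 0.130, 0.125 and 0.185 FPKM and its KO libraries 0.322, 0.248, 0.244, 0.359 and 0.257 FPKM. The groups did not overlap, the ratio of the means was 2.13, and the log2 fold change was 0.66 ± 0.13 (SE; limma, adjusted p = 0.00752). The values rest on 11.3 to 18.5 estimated fragments per Het and 25.0 to 38.4 per KO library. Without KO library D the log2 fold change was 0.58, under 1.5-fold, and with the GC trend removed it was 0.51 (limma, adjusted p = 0.0226), again under 1.5-fold. In 2cell embryos Dnmt3b was 0.0452, 0.0456, 0.124, 0.0872 and 0.0409 FPKM in Het and 0.107, 0.176, 0.135 and 0.325 FPKM in KO libraries, where Het library C lay above KO library A, and 1 Het against 4 KO libraries reached the filter of 0.1 FPKM. The log2 fold change of 0.71 ± 0.25 (SE) was not called (limma, adjusted p = 0.0725). It was called in 2 of 9 other settings, the fit of all 19 libraries (0.69, limma, adjusted p = 0.0127) and the scaling to the same sum of FPKM (0.88, adjusted p = 0.0382).

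Dnmt3a, the main de novo enzyme of the growing oocyte, was not called at either stage. At MII it was 0.342, 0.611, 0.299, 0.535 and 0.657 FPKM in Het and 0.646, 0.577, 0.713, 0.589 and 0.442 FPKM in KO libraries, with overlap. At the 2cell stage it was 0.04995, 0.0517, 0.0653, 0.122 and 0.0950 FPKM in Het and 0.125, 0.181, 0.137 and 0.202 FPKM in KO libraries. These did not overlap, but Het D (0.122) and KO A (0.125) were close, and 1 Het against 4 KO libraries reached the filter. The log2 fold change was 0.55 ± 0.19 (SE; limma, adjusted p = 0.0703). The antisense gene Dnmt3aos was higher in KO than in Het MII oocytes, at 1.12 ± 0.440 against 0.372 ± 0.125 FPKM (SD, n = 5 each), with a log2 fold change of 1.27 ± 0.23 (SE; limma, adjusted p = 0.00463). Without strand, reads of Dnmt3a and Dnmt3aos cannot be told apart where the genes overlap. The cofactor Dnmt3l differed little between genotypes, with log2 fold changes of 0.17 (95% interval -0.12 to 0.45) at MII and 0.12 (-0.36 to 0.60) at the 2cell stage, where the sign turned with the GC trend removed.

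Tet3, the main TET gene of the oocyte, was called in 2cell embryos. Its Het libraries A to E held 0.549, 0.599, 0.953, 0.803 and 0.577 FPKM and its KO libraries A to D 1.41, 1.47, 1.32 and 1.42 FPKM. The KO libraries lay close together and all above the Het libraries, the ratio of the means was 2.02, and the log2 fold change was 0.90 ± 0.17 (SE; limma, adjusted p = 0.00690). It was called in 9 of 9 fits that each left out 1 library. With a pseudocount of 1 FPKM, which lowers the change of a low gene, the log2 fold change was 0.49, under 1.5-fold (limma, adjusted p = 0.00679). In MII oocytes Tet3 was 3.09, 4.60, 2.79, 4.22 and 4.60 FPKM in Het and 6.56, 6.05, 4.68, 3.98 and 5.31 FPKM in KO libraries. KO library D lay within the Het range, and the log2 fold change of 0.36 ± 0.15 (SE) was not called (limma, adjusted p = 0.105).

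The other TET genes were low. Tet1 had log2 fold changes of -0.02 (95% interval -0.27 to 0.24) at MII and -0.36 (-0.97 to 0.26) at the 2cell stage, and its Het 2cell libraries varied the most, from 0.127 to 0.394 FPKM. Tet2 failed the filter of 0.1 FPKM in every comparison. In 2cell embryos it was 0.0244, 0.0260, 0.0255, 0.0263 and 0.0184 FPKM in Het and 0.0553, 0.0663, 0.0797 and 0.0473 FPKM in KO libraries, which corresponds to 6.27 to 8.75 and 15.4 to 23.2 estimated fragments. The KO libraries were all above the Het libraries, and in the fit with no filter the log2 fold change was 0.37 (limma, adjusted p = 0.0203), under 1.5-fold on the scale with the pseudocount of 0.1, although the ratio of the means was 2.58. In MII oocytes the ranges of Tet2 overlapped.

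Dppa3 was the member that was lower in KO MII oocytes. Its Het libraries A to E held 1078, 889, 1054, 914 and 876 FPKM and its KO libraries A to E 480, 649, 685, 750 and 728 FPKM. The groups did not overlap, and Het libraries A and C, the lowest for Uhrf1, were the highest for Dppa3. The mean was 1.46-fold lower in KO, and the log2 fold change after scaling was -0.66 ± 0.17 (SE; limma, adjusted p = 0.0202). The call was lost without Het library A (limma, adjusted p = 0.0521), without Het library C (0.0511) and without KO library A, where the log2 fold change of -0.52 was under 1.5-fold. It was -0.56 with the deposited values unscaled, -0.48 with libraries scaled to the same sum and -0.58 with the GC trend removed, each under 1.5-fold. The adjusted p stayed under 0.05 in each of these (limma, 0.0153, 0.0258 and 0.0155). Dppa3-ps went the same way, at 1626 ± 155 FPKM in Het and 1104 ± 185 FPKM in KO MII oocytes (SD, n = 5 each), with a log2 fold change of -0.67 (limma, adjusted p = 0.0198), and the summed FPKM of the pair were 2588 ± 251 and 1763 ± 291 with no overlap, a sum that likewise depends on how reads were split. In 2cell embryos Dppa3 was 902, 876, 869, 1003 and 1013 FPKM in Het and 890, 930, 1004 and 604 FPKM in KO libraries. These overlapped, with KO library D the lowest, and the log2 fold change was -0.19 (95% interval -0.54 to 0.16), with the opposite sign when libraries were scaled to the same sum of FPKM. The level of Dppa3 relative to Uhrf1 was 132 to 294 in Het and 66.7 to 93.6 in KO MII oocytes, and 825 to 1661 in Het and 191 to 599 in KO 2cell embryos (ratio of FPKM).

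The second question was how the members changed from MII to the 2cell stage. In Het 6 of the 8 members tested were called, 5 lower and 1 higher, against 66.4% of 15786 genes, and in KO 5 were called, 4 lower and 1 higher, against 65.2%. Of all genes 28.2% were called lower in Het and 27% in KO, and 38.2% higher in each. The libraries of the stages did not overlap in 5 of the 8 members tested in Het and in 5 of 8 in KO, against 58.9% and 59.3% of the genes tested. The median log2 fold change of the members was -1.23 in Het and -1.04 in KO, beside 0.21 over all genes in each. The 2 comparisons set apart different libraries, but both came from 1 fit of all 19, so they share its scaling, filter and estimate of spread.

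Dnmt1 fell the most of the members, from 7.86 to 0.321 FPKM in Het (24.5-fold) and from 8.95 to 0.442 FPKM in KO (20.3-fold). The log2 fold changes were -4.45 ± 0.13 and -4.20 ± 0.13 (SE; limma, adjusted p = 9.75e-16 and 6.72e-15). Uhrf1 fell 6.71-fold in Het and 3.31-fold in KO, and Tet3 5.55-fold and 3.78-fold. Dnmt3a fell 6.37-fold and 3.68-fold. In each of these 4 genes no 2cell library reached the lowest MII library of its genotype, and each was called in every fit that left out 1 library. Dnmt3b was called in Het (log2 fold change -0.61, limma, adjusted p = 0.00554) and in 5 of 10 fits without 1 library, and was just under 1.5-fold in KO (-0.58, adjusted p = 0.0116), so the call separated values that hardly differed.

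Dnmt3l, which lacks catalytic activity of its own, was the member that rose, from 0.341 ± 0.0570 to 0.811 ± 0.168 FPKM in Het (SD, n = 5 each; log2 fold change 0.84 ± 0.16 SE, limma, adjusted p = 0.000130) and from 0.422 ± 0.0530 (SD, n = 5) to 0.920 ± 0.207 FPKM (SD, n = 4) in KO (0.81 ± 0.17 SE, adjusted p = 0.000350). When libraries were scaled to the same sum of FPKM, which lowered the median of all genes from 0.21 to -0.17 in Het, its log2 fold change was 0.38 in Het and 0.46 in KO, and neither was called. Tet1 was 2.14-fold higher in Het 2cell embryos than in Het MII oocytes but missed 1.5-fold on the log2 scale (0.51 ± 0.20 SE, limma, adjusted p = 0.0270). It passed that threshold without Het 2cell library A (0.59) or B (0.67), with the deposited values unscaled (0.65) and with the GC trend removed (0.74). It was called in only 2 of 10 fits that left out 1 library, and was 0.42 without Het 2cell library D and 0.39 without E. Scaled to the same sum of FPKM it was 0.15 (limma, adjusted p = 0.471). In KO the log2 fold change of Tet1 was 0.19, not called (limma, adjusted p = 0.428). Dppa3 stayed near its MII level, with log2 fold changes of -0.27 (95% interval -0.60 to 0.06) in Het and 0.22 (-0.13 to 0.57) in KO. Under the scaling to the sum of FPKM it was called lower in Het, at -0.83 (limma, adjusted p = 3.13e-05).

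**Figure D4:**
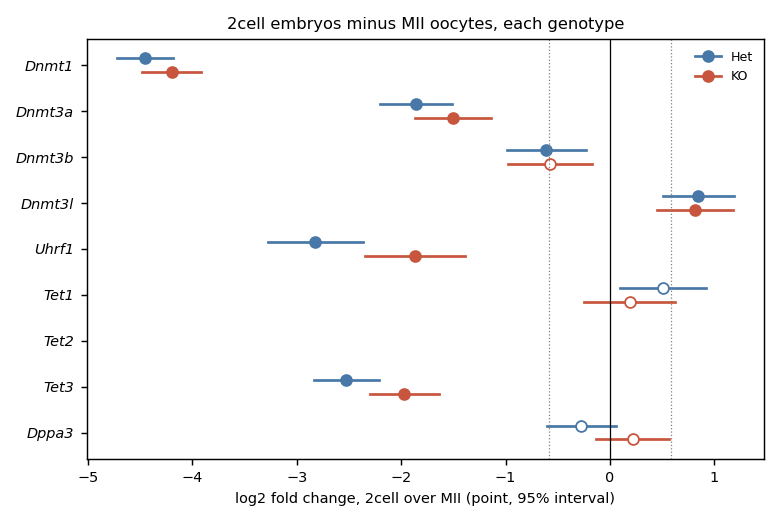
log2 fold change of 2cell embryos over MII oocytes for each member in Het (blue) and KO (red), with 95% intervals; filled points were called, and dotted lines mark 1.5-fold. Dnmt1 lies farthest to the left, near -4.45 in Het and -4.20 in KO, and Dnmt3l is the filled point on the right.

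In FPKM, which depend on the length used for each gene, these changes altered the make-up of each family. Dnmt1 made up 89.1% ± 1.24 of the summed FPKM of the DNMT genes in Het MII oocytes and 25.5% ± 5.82 in Het 2cell embryos, while Dnmt3l went from 3.93% ± 0.978 to 63.0% ± 5.95 (SD, n = 5 each). In KO Dnmt3l went from 4.14% ± 0.703 (SD, n = 5) to 53.6% ± 6.76 (SD, n = 4). The sum itself fell from 8.82 to 1.28 FPKM in Het and from 10.3 to 1.71 FPKM in KO. Among the TET genes Tet3 held 96.0% ± 0.923 in Het MII oocytes and 70.7% ± 8.11 in Het 2cell embryos (SD, n = 5 each), with Tet1 rising from 3.27% to 26.7%. In KO 2cell embryos Tet3 held 84.8% ± 3.27 and Tet1 11.4% ± 4.12 (SD, n = 4). All KO 2cell libraries were above all Het 2cell libraries in the share of Tet3 (80.7% to 87.7% against 58.3% to 79.7%), with the nearest values close together.

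**Figure D5:**
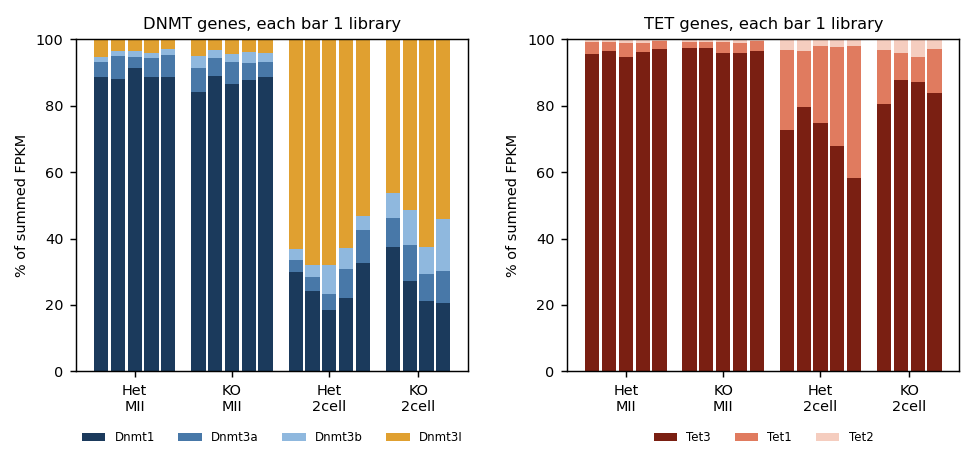
Share of each gene in the summed FPKM of the DNMT genes (left) and of the TET genes (right), as stacked bars of 1 library each, grouped by genotype and stage. Dnmt1 makes up most of each MII bar on the left and Dnmt3l a large part of each 2cell bar, and Tet1 takes a larger part of the Het than of the KO 2cell bars on the right.

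Whether the change between stages differed by genotype was tested as an interaction. None of the 8 members was called (limma), against 7.76% of 15786 genes, and 3 had an unadjusted p under 0.05. Uhrf1 had the largest value, a log2 difference of 0.95 ± 0.31 (SE; limma, adjusted p = 0.0693), with a fall of 2.82 in Het and of 1.87 in KO on the log2 scale. It was called without Het 2cell library D (1.10, adjusted p = 0.0322) and without KO 2cell library C (1.11, adjusted p = 0.0381), and in no other fit that left out 1 library. Tet3 followed with 0.55 ± 0.22 (SE; limma, adjusted p = 0.129) and Dppa3 with 0.49 ± 0.23 (SE; limma, adjusted p = 0.208). By this test the genotype differences of Uhrf1 and Tet3 in 2cell embryos were not shown to be unlike those in MII oocytes.

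For the highest member at either stage, Dppa3, the genes with the most similar pattern were sought among 5279 genes over the 19 libraries. Dppa3-ps had a Pearson r of 0.997, for which shared reads cannot be told apart from shared levels. Srsf3, which encodes a splicing factor, had an r of 0.90, Tipin, a replication fork protein, 0.90, Obox5, an oocyte homeobox gene, 0.90, and Gm4596 0.89. Obox5 was at 337 FPKM in Het and 162 FPKM in KO MII oocytes, and at 325 and 212 FPKM in Het and KO 2cell embryos. The 19 points share the 4 groups, and the correlations describe these libraries only.

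The wider pathway was described with 88 further genes in 8 lists, of which 81 were in the table. In MII oocytes 54 of them were tested, of which 4 rose in KO and 2 fell, against 5.59% called higher and 7.29% called lower of all genes. For 2cell embryos the test covered 62, of which 7 rose and 4 fell, against 8.53% and 9.54%. One of the 7, Mbd2, met the filter only through KO libraries, and without it 6 of 61 rose. Their medians of the log2 fold change were 0.04 and 0.06. Leaving out 1 library gave 3 to 9 calls at MII, the lowest without KO C (3 higher, 0 lower) and the highest without KO D (5 higher, 4 lower), and 10 to 12 at the 2cell stage. The number of calls and their direction depended on the processing. At MII 11 were higher and 0 lower with libraries scaled to the same sum of FPKM, 6 and 0 with the values as deposited, and 3 and 0 with the GC trend removed (limma; 9 lower at an unadjusted p under 0.05). With a pseudocount of 1, which brings the change of a low gene under 1.5-fold, the calls at MII were 0 and 0 (limma). The genes called in the main fit kept an adjusted p under 0.05 there, from 0.00187 (Zfp445) to 0.0378 (Idh1). At the 2cell stage 13 were higher and 1 lower scaled to the sum, and 5 and 2 with the GC trend removed.

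Of the repair enzymes that complete active demethylation, 12 were tested at each stage, with 2 called higher at MII and 3 at the 2cell stage, beside the shares of all genes called higher just given (5.59% and 8.53%). At MII these were the glycosylase gene Neil2, with 0.0601 to 0.211 FPKM in Het and 0.273 to 0.483 FPKM in KO libraries (log2 fold change 0.93 ± 0.17 SE, limma, adjusted p = 0.00551), and Mbd4, a glycosylase for T:G mismatches, with 1.24 to 1.81 and 2.05 to 3.37 FPKM (0.59 ± 0.15 SE, adjusted p = 0.0216). Neil2 was called in 10 of 10 fits that left out 1 library and Mbd4 in 5 of 10. At the 2cell stage Gadd45g, of a family linked to repair-based demethylation, was at 2.49 to 4.82 FPKM in Het and 7.01 to 12.2 FPKM in KO libraries (1.26 ± 0.23 SE, limma, adjusted p = 0.00693). Ung, the uracil glycosylase gene, was at 0.312 to 0.639 and 0.903 to 1.24 FPKM (0.94 ± 0.19 SE, adjusted p = 0.00964). The other one called was Gadd45b. With the GC trend removed Gadd45g lost its call (log2 fold change 0.84, adjusted p = 0.0514), Gadd45b fell under 1.5-fold (log2 fold change 0.42) and Ung kept its call.

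Of the partners of TET and DPPA3, Ddb1, an adaptor of the CRL4 ubiquitin ligase, was at 1.43 to 2.51 FPKM in Het and 4.58 to 5.20 FPKM in KO 2cell embryos (log2 fold change 1.35 ± 0.14 SE, limma, adjusted p = 0.00116). Xpo1, the nuclear export receptor, was lower in KO, at 0.837 to 1.12 FPKM against 1.86 to 3.91 FPKM in Het libraries (-1.37 ± 0.24 SE, adjusted p = 0.00591). Each was called in 9 of 9 fits without 1 library and with the GC trend removed. Cul4b was also called lower, so 1 of the 5 tested was higher and 2 were lower, against 8.53% and 9.54% of all genes, but with the GC trend removed Cul4b lost its call (log2 fold change -0.28). At MII 1 of 6, Ddb1, was called higher, against 5.59% of all genes. Its Het and KO libraries overlapped there, and it fell under 1.5-fold with the GC trend removed (0.55).

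Of the 6 genes tested in 2cell embryos from the list of readers of methylated DNA, 2 were called higher, against 8.53% of all genes. The list holds genes of the MBD and ZBTB families, and binding to methylated DNA is not established for each of them, Mbd6 included. Mbd6 was at 0.174 to 0.661 FPKM in Het and 1.01 to 1.60 FPKM in KO libraries (log2 fold change 1.51 ± 0.30 SE, limma, adjusted p = 0.00873), and Mbd2 at 0.0427 to 0.0861 and 0.156 to 0.221 FPKM (0.82 ± 0.17 SE, adjusted p = 0.00995). Mbd2 passed the filter of 0.1 FPKM only through its 4 KO libraries, as none of the Het libraries reached it, so its test is no support for the list, and without it 1 of 5 was called. It also lost its call with the GC trend removed (adjusted p = 0.0589). None of the 3 genes of this list tested at MII was called (limma), and 1 had an unadjusted p under 0.05.

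Among genes that set histone marks read by the DNMT3 enzymes, Setd2, which trimethylates H3K36, was lower in KO at either stage. It was at 1.24 to 1.58 FPKM in Het and 0.828 to 0.995 FPKM in KO MII oocytes (log2 fold change -0.62 ± 0.10 SE, limma, adjusted p = 0.00288), and at 2.62 to 4.24 and 1.71 to 2.02 FPKM in 2cell embryos (-0.88 ± 0.16 SE, adjusted p = 0.00707). With the libraries scaled to the sum of FPKM both fell under 1.5-fold (-0.46 and -0.56), and at MII so did the value with the GC trend removed (-0.52). Kmt2d, an H3K4 methyltransferase, was at 0.303 to 0.704 FPKM in Het and 0.794 to 1.36 FPKM in KO 2cell embryos (1.08 ± 0.23 SE, adjusted p = 0.0111). In all, 1 of 7 was called lower at MII, against 7.29% of all genes. At the 2cell stage 1 of 8 was called higher and 1 lower, against 8.53% and 9.54%.

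Of 8 genes of imprint protection, Zfp445, a zinc finger protein that guards imprints, was called at MII, with 0.483 to 0.628 FPKM in Het and 0.939 to 1.22 FPKM in KO libraries (log2 fold change 0.78 ± 0.11 SE, limma, adjusted p = 0.00171; called in 10 of 10 fits without 1 library), and none was called or had an unadjusted p under 0.05 at the 2cell stage. Zfp57 and Trim28, which bind methylated imprints together, were not called, with log2 fold changes between -0.19 and 0.07. Beside the genotype counts of this paragraph, 5.59% of all genes were called higher and 7.29% lower at MII, and 8.53% and 9.54% at the 2cell stage. Of the DNMT1 cofactors, none of 7 was called at MII (limma; 4 at an unadjusted p under 0.05) and 1 of 7, Hells, was lower at the 2cell stage (1.17 to 1.70 FPKM in KO against 2.10 to 2.70 FPKM in Het). Hells lost this call with the GC trend removed (log2 fold change -0.20, not past an adjusted p of 0.05) and with libraries scaled to the same sum (-0.34, adjusted p = 0.154). No gene of S-adenosylmethionine supply was called at either stage (limma; 0 of 7 and 0 of 10, with 2 and 3 at an unadjusted p under 0.05), and of the alpha-ketoglutarate genes 1 of 4, Idh1, was lower at MII (under 1.5-fold with the GC trend removed, at -0.51) and none of 6 was called at the 2cell stage, where 4 were lower at an unadjusted p under 0.05. From MII to the 2cell stage, 22 of the 69 pathway genes tested rose and 25 fell in Het, and 21 rose and 27 fell in KO, against 38.2% of all genes called higher in each genotype and 28.2% and 27% called lower. Scaled to the same sum of FPKM these were 15 and 39 in Het and 16 and 35 in KO. The interaction was called for 5 of them, against 7.76% of all genes, among them Gadd45g (log2 difference 1.32, limma, adjusted p = 0.00720) and Zfp445 (-0.75, adjusted p = 0.0462). Without 1 library the number called ran from 3 (without Het or KO MII D or E, Het 2cell D or E, or KO 2cell D) to 8 (without Het 2cell C), and Gadd45g was called in 19 of these 19 fits and Zfp445 in 5. With the GC trend removed 3 were called, and with a pseudocount of 0.01 only 1.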

How the data were processed

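RNA-seq libraries (SMART-seq v4, 150 bp paired-end) were trimmed by the authors with Trim Galore 0.4.1, mapped to GRCm38 with HISAT2 2.0.5 and quantified in SeqMonk, per the study's methods and the submitters' processing notes. The deposited table holds FPKM, computed by the authors, although it is called raw counts: almost no value is whole. Groups were taken from the labels. Names were joined to GENCODE vM21 (25642 of 25891 matched). FPKM + 0.1 were log2-transformed after trimmed-mean (TMM) scaling, and genes with at least 0.1 FPKM in 5 MII, 4 2cell or, for stages, 4 of 19 libraries were fitted with limma 3.58.1 (R 4.3.3; eBayes with trend), with Benjamini-Hochberg adjustment over all genes. The code was tested on simulated data. No count model was used. The members and gene lists were chosen with earlier results of these data known. Named from the pathway lists were up to 8 called genes per genotype comparison, the largest changes without overlap; other called genes were named where a count was small, after their values were seen. Alternatives were other scalings, filters and pseudocounts, removal of the trend on GC content, the replicate letter as a block, other sample sets and leaving out each library. Depth was the value at which low FPKM times transcript kilobases (under 0.35) best fell on whole fragments. At that depth 31.7% lay within 0.05 of a whole fragment, against 10% for evenly spread values, so depth and fragments are approximate. Protein sequences were not used here.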

Additional observations from a re-analysis of the deposited data

Results flagged for a closer look

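Among 36 sets of libraries (each member in each group), 3 held a library farther from the others than Dixon's 95% limit, and chance gives about 1 in 20. Dnmt3b was 0.185 FPKM in Het MII library E, above the other 4. Dnmt3l was 0.518 FPKM and Tet2 0.0184 FPKM in Het 2cell library E, each below the other 4.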

How the results depend on the processing

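Members called between genotypes at MII numbered 2. They numbered 1 with the values as deposited, with no filter, with a filter of 1 FPKM and with a pseudocount of 1, and 0 with the GC correction. Leaving out 1 library gave 1 to 2, with Het A, Het C, KO A or KO D the libraries that cost a call. In 2cell embryos the 2 calls became 5 with scaling to the sum of FPKM (Dnmt1, Dnmt3a and Dnmt3b added) and 1 with a pseudocount of 1. Dnmt3b was also added in the fit of all 19 libraries. From MII to the 2cell stage 3 members were called in each genotype with the filter of 1 FPKM, where fewer were tested, and with the pseudocount of 1. For the interaction, leaving out 1 library gave 0 to 1.

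Same-lettered libraries did not pair: the correlations of their deviations ran from -0.18 to 0.12, and 2 of 9 letters correlated best with their own. With the replicate block 1 member was called at MII (Dnmt3b), 1 at the 2cell stage (Uhrf1) and 1 in the interaction (Uhrf1), and with the replicate block and GC correction 0, 0 and 1. Over all genes the fit with the block called 824 at MII and 369 at the 2cell stage, and 0 there with GC correction, where the fit without it called 1355 and 2538. Of the pathway genes it called 2 higher and 1 lower at MII, 2 and 0 at the 2cell stage (0 and 0 there with GC correction), and 2 in the interaction. For Uhrf1 the interaction was 0.99 with the block (limma, adjusted p = 0.0191) and 0.92 with the block and GC correction (0.0196).

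Signs turned only in values that were not called. Tet1 at MII was 0.0401 as deposited, 0.0841 scaled to the sum, 0.117 with GC correction, with or without the block, and -0.0676 to 0.0319 without 1 library. Dnmt1 at MII was -0.0790 with GC correction, with or without the block. Dnmt3l at the 2cell stage was -0.0652 with GC correction, -0.0127 with the block, -0.196 with the block and GC correction, and -0.0151 to 0.261 without 1 library. With scaling to the sum Dppa3 was 0.15 at the 2cell stage, and in KO between stages Tet1 was -0.0639 and Dppa3 -0.199. In the interaction Dnmt3b was -0.0568 scaled to the sum, -0.0347 with a pseudocount of 1, -0.0335 with GC correction, -0.0366 with the block and GC correction, and -0.180 to 0.163 without 1 library. Dnmt3l there was 0.0897 scaled to the sum, 0.00906 with a pseudocount of 1 and -0.162 to 0.107 without 1 library. The cause was not tested.

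Over all genes, the filter of 1 FPKM (fewer genes tested) gave 766 calls at MII, 1582 at the 2cell stage, 5299 and 5156 between stages in Het and KO, and 797 in the interaction. A pseudocount of 1 gave 481, 1162, 5282, 5270 and 798, and one of 0.01 gave 779 in the interaction. Of 1355 calls at MII 588 were higher. As deposited these were 786 of 1377, and scaled to the sum 1111 of 1589. Of 2538 at the 2cell stage 1198 were higher, and scaled to the sum 2423 of 2996, with medians of all genes of 0.15 and 0.26. Between stages in Het 6036 of 10489 were higher, and scaled to the sum 4976 of 10907. In the interaction 571 of 1225 were positive, and scaled to the sum 802 of 1218. The number of U-rich motifs as a mean over annotated transcripts was 2.75 for Dnmt3a, 3.70 for Dnmt3b and 6.75 for Tet1.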
